A study of Ovis aries with 8 samples.

Results

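Myostatin (MSTN, also called GDF8) and bone morphogenetic protein 6 (BMP6) are secreted ligands of the transforming growth factor beta (TGF-beta) family. They were followed here in the pituitary of the fetal sheep after a short period of hypoxia. The 2 genes were chosen from the measured values, because the MSTN 3' UTR probe was among the probes with the largest falls and the BMP6 probes were among those with the largest rises in this comparison. Their probes were then found by the gene name and the description that the array gives each probe. This gave 4 of the 15008 probes, 2 for MSTN and 2 for BMP6, and all 4 were bright enough to be retained with 13036 probes in all. The hypoxia minus normoxia differences of these 4 probes are therefore given as a description, without a test.

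RNA of whole pituitaries, with the lobes not separated, came from 8 Ovis aries fetuses of late gestation that carried catheters, and each was hybridised to its own 1-colour Agilent array. In the hypoxia group (n = 4), nitrogen was led into the trachea of the ewe for 30 min and the fetus was killed 60 min after the onset. The normoxia group (n = 4) was handled over the same time without hypoxia. No strain or genetic change is given for either group. There was 1 female fetus in each group, the other 3 being male. The arrays lay on 2 slides, and both slides held 2 hypoxia and 2 normoxia arrays. The hypoxic fetuses were 129 to 132 days of gestation and the normoxic fetuses 123 to 129 days, so that group and age largely went together. Arrays are named below by group and replicate number.

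The ligands of this family bind pairs of type I and type II serine-threonine kinase receptors on the cell surface, and the receptors phosphorylate SMAD proteins that carry the signal to the nucleus. MSTN, best known as an inhibitor of skeletal muscle growth, binds the activin type II receptors and acts through SMAD2 and SMAD3. BMP6 binds type I receptors such as ACVR1 and BMPR1B, acts through SMAD1 and SMAD5, and is known for the control of iron balance by the liver. In the pituitary, activins made within the gland raise the transcription of FSHB, the beta subunit of follicle-stimulating hormone. Inhibin and follistatin oppose activin, and BMPs act on gonadotropes and corticotropes.

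The sequences of the probes show which part of each mRNA was measured, and they are given 5' to 3' as the array files list them. The MSTN coding probe, A_70_P051186, was made from the RefSeq mRNA NM_001009428, starts at base 1068 of it by the array's own annotation, and was spotted 5 times per array. It ends on TGA, the stop codon of the MSTN reading frame, shown in capitals.
A_70_P051186: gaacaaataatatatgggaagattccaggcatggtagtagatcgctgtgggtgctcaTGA
The other MSTN probe, A_70_P024126, is described by the array as lying in the 3' UTR of ovine myostatin (EF439841) and was spotted 1 time per array. Its first 30 of 60 bases are shown.
A_70_P024126: ggttcgtgatggctgtataatgtgaatgtg
The MSTN probes thus read different stretches of the message, and no run of 20 bases of either was found in any other probe of the array, on either strand. Both BMP6 probes, each spotted 1 time per array, came from the expressed sequence tag EE826411, at bases 363 and 364, and are the same sequence moved by 1 base. The base that each does not share with the other is in capitals.
A_70_P026587: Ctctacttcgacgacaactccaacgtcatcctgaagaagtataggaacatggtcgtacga
A_70_P026586: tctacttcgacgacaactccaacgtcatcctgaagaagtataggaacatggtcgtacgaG
They share 59 of 60 bases, so their values repeat 1 measurement at separate spots and are not independent evidence. No other probe shared 20 bases with them. GC content was 35% for the MSTN 3' UTR probe, 43.3% for the MSTN coding probe and 46.7% for both BMP6 probes.

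The arrays differed in brightness with the group. Before any correction, hypoxia arrays had a median signal of 229.5 to 294.9 units per spot, and normoxia arrays one of 309.1 to 380.5. The share of probes well above background ran from 79.4% to 85.5% per array. A probe was called where the moderated test of limma gave an unadjusted p no higher than 0.05. This held for 18.4% of the 13036 retained probes, 7.46% higher and 11% lower after hypoxia. After Benjamini-Hochberg adjustment the limma p was under 0.05 for 3 probes and under 0.1 for 316. All 7 named genes of the anterior lobe that were retained (among them POMC, PRL, CGA and POU1F1) and all 4 of the posterior lobe and glia (OXT, GFAP, AQP4 and VIM) were well above background on all 8 arrays. In tissue of mixed cells, fewer cells of a type and less RNA per cell cannot be told apart, which holds for every value below.

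For MSTN the probes disagreed. Its 3' UTR probe was lower after hypoxia, and its coding probe was at similar levels in both groups. By quantitative PCR on the same RNA, the study reported a significant decrease of MSTN mRNA after hypoxia. The study lists its MSTN primers, but they were not placed on the message here. Whether they read the same stretch as either probe was therefore not examined. On the log2 scale after quantile normalization, the 3' UTR probe was 7.65, 7.57, 8.50 and 7.40 on hypoxia replicates 1 to 4 and 8.48, 8.96, 9.33 and 9.73 on normoxia replicates 1 to 4. Hypoxia replicate 3 lay just above normoxia replicate 1, and the other hypoxia arrays lay below every normoxia array. The group means were 7.78 ± 0.49 and 9.13 ± 0.53 (SD, n = 4 each). The difference was -1.35 log2 units (SE 0.30), or 2.55-fold lower, and 8 of the 13036 retained probes fell further.

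The coding probe was 7.45, 7.96, 7.59 and 8.22 on hypoxia replicates 1 to 4 and 7.14, 7.71, 8.18 and 8.37 on normoxia replicates 1 to 4. The hypoxia arrays lay wholly inside the range of the normoxia arrays. Its group means were 7.81 ± 0.35 and 7.85 ± 0.55 (SD, n = 4 each), and the difference was -0.04 (SE 0.27). The disagreement between the MSTN probes can also be read array by array, as the 3' UTR value minus the coding value. This gap was 1.16 to 1.36 log2 units on the 4 normoxia arrays, and was 0.20, -0.39, 0.90 and -0.82 on hypoxia replicates 1 to 4. The size of the gap itself depends on how well each probe binds, so that only its change between arrays can be read. The gap was narrow in its range among normoxia arrays, and each hypoxia array had a smaller gap than any normoxia array. Since the 3' UTR probe was picked for its fall in this comparison, nothing is read from this separation. Across the 8 arrays the MSTN probes had a Pearson correlation of 0.27, and 0.40 for deviations from the group means, as a description over arrays that were normalized together.

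**Figure D1:**
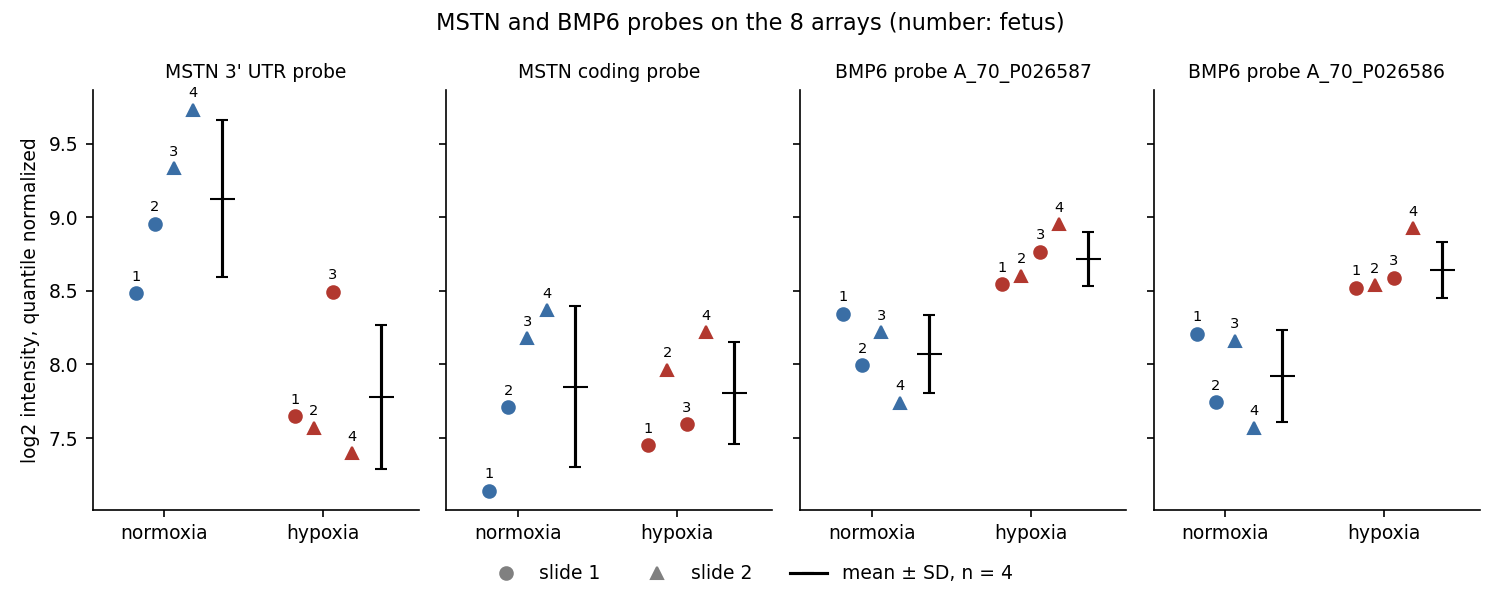
Quantile-normalized log2 intensity (y axis) of the MSTN and BMP6 probes in the normoxia and hypoxia groups, 1 point per array with its replicate number, circles for slide 1 and triangles for slide 2, and black bars for the mean ± SD (n = 4). The MSTN 3' UTR probe averaged 7.78 in hypoxia and 9.13 in normoxia, the MSTN coding probe averaged 7.81 and 7.85, and the BMP6 probes did not overlap between the groups.

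BMP6 was higher after hypoxia on both of its probes. A_70_P026587 was 8.55, 8.60, 8.77 and 8.95 on hypoxia replicates 1 to 4 and 8.34, 7.99, 8.22 and 7.74 on normoxia replicates 1 to 4. A_70_P026586 was 8.52, 8.54, 8.59 and 8.92 in the hypoxia group and 8.21, 7.74, 8.16 and 7.57 in the normoxia group, in the same order. For each probe, the lowest hypoxia array lay above the highest normoxia array, by 0.20 and 0.31 log2 units. Such a lack of overlap between the groups was seen for 10.1% of all retained probes, and since the genes were picked on this comparison nothing is read from it.

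For A_70_P026587 the group means were 8.72 ± 0.18 and 8.07 ± 0.26 (SD, n = 4 each), a difference of 0.64 (SE 0.14) or 1.56-fold. For A_70_P026586 they were 8.64 ± 0.19 and 7.92 ± 0.31 (SD, n = 4 each), a difference of 0.72 (SE 0.16) or 1.65-fold. Normoxia arrays spread more than the hypoxia arrays on both, and normoxia replicate 4 was lowest on both. The values of the 2 BMP6 probes correlated at 0.99 over the 8 arrays. Over the arrays, the MSTN 3' UTR probe and the BMP6 probes ran in opposite directions (r of -0.85 and -0.86). The genes were picked for a fall and a rise in this comparison, so nothing is read from this. Within the groups r was weaker (-0.49 and -0.53 for deviations from the group means).

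The signals before correction bear on how far each difference rests on the normalization. For MSTN the 3' UTR probe read 191, 165, 345 and 133 units on hypoxia replicates 1 to 4 and 444, 499, 724 and 990 on normoxia replicates 1 to 4. Before normalization its groups did not overlap. It was picked for its fall, and each hypoxia array had a lower median signal than any normoxia array. No share of all probes is given for values before normalization, so nothing is read from this. On the dimmest array, hypoxia replicate 4, it was still 1.74 times the 95th percentile of the negative control spots. The MSTN coding probe read 169 to 226 units in hypoxia and 164 to 375 in normoxia. Its 5 spots lay close together, for example 144 to 191 on hypoxia replicate 1 and 354 to 398 on normoxia replicate 4.

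The BMP6 probes overlapped between the groups before normalization. A_70_P026587 read 359, 339, 413 and 365 units in hypoxia and 402, 255, 338 and 236 in normoxia. A_70_P026586 read 326 to 367 in hypoxia and 212 to 368 in normoxia. With the hypoxia arrays dimmer throughout, normalization raised their BMP6 values relative to those of normoxia, and the groups then separated. On each of the 8 arrays every spot of these probes was well above background, and none was saturated or marked as an outlier. With array brightness as a covariate, chosen after seeing the data, the differences were -1.06 (SE 0.54) for the MSTN 3' UTR probe, -0.72 (SE 0.41) for the coding probe, and 0.59 (SE 0.26) and 0.67 (SE 0.29) for the BMP6 probes. Brightness and group cannot be fully separated here, since the brightest hypoxia array lay below the dimmest normoxia array.

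**Figure D2:**
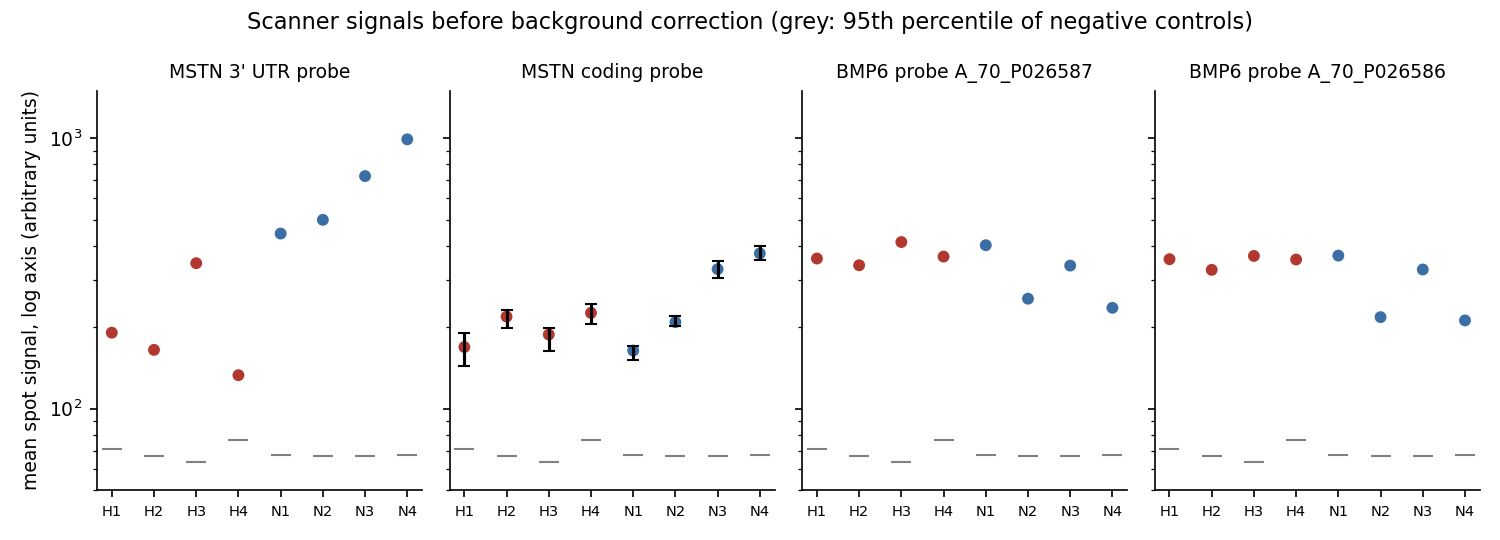
Mean spot signal before background correction (y axis, log scale, arbitrary units) of the MSTN and BMP6 probes on hypoxia arrays H1 to H4 (red) and normoxia arrays N1 to N4 (blue), with bars for the lowest and highest of the 5 spots of the MSTN coding probe and grey marks for the 95th percentile of the negative controls. The MSTN 3' UTR probe lay between 133 and 345 in hypoxia and between 444 and 990 in normoxia, while the BMP6 probes overlapped.

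The slides separated the MSTN coding probe where the groups did not. Its values were 7.14 to 7.71 on the 4 arrays of slide 1 and 7.96 to 8.37 on the 4 arrays of slide 2, in both groups alike. In a limma fit with group and slide, slide 2 was higher by 0.71 log2 units (SE 0.14, unadjusted p = 0.000886, adjusted p = 0.516 over 13036 probes). The slide term reached an unadjusted p of 0.05 or below for 5.19% of all probes and an adjusted p under 0.05 for 0. The slide term of the other probes was 0.11 (SE 0.31) for the MSTN 3' UTR probe and -0.03 (SE 0.15) and 0.03 (SE 0.17) for the BMP6 probes. Each slide was scanned at its own time, so slide and scan cannot be told apart.

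Within slide 1 the MSTN 3' UTR probe differed by -0.65 between the groups, and within slide 2 by -2.05. The interaction of hypoxia with slide was -1.40 (SE 0.41, limma unadjusted p = 0.00976, adjusted p = 0.542), and 7.45% of all probes reached an unadjusted p of 0.05 or below for this term. The BMP6 difference was 0.49 and 0.80 on slides 1 and 2 for A_70_P026587, and 0.58 and 0.87 for A_70_P026586. Their interaction terms were 0.31 (SE 0.30, limma adjusted p = 0.809) and 0.29 (SE 0.34, limma adjusted p = 0.854). The coding probe of MSTN differed by 0.10 on slide 1 and by -0.18 on slide 2 (interaction -0.28, SE 0.28, limma adjusted p = 0.821). Of the 4 probes, none had an interaction past the adjusted threshold.

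Gestational age moved with the values of the MSTN 3' UTR probe and of BMP6. The youngest fetus, normoxia replicate 4 at 123 days, had the highest MSTN 3' UTR value (9.73) and the lowest BMP6 values (7.74 and 7.57). The oldest, hypoxia replicate 4 at 132 days, had the lowest MSTN 3' UTR value (7.40) and the highest BMP6 values (8.95 and 8.92). Within the groups the order was strict only for the MSTN 3' UTR probe in hypoxia. It was 8.50 at 129 days, 7.65 and 7.57 at 131 days and 7.40 at 132 days. In that group A_70_P026587 was 8.77 at 129 days, 8.55 and 8.60 at 131 days and 8.95 at 132 days. The normoxic fetus at 126 days had a lower MSTN 3' UTR value than those at 128 and 129 days.

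In a limma fit with group and age, the age term was -0.13 log2 units per day (SE 0.08, adjusted p = 0.962) for the MSTN 3' UTR probe. For the BMP6 probes it was 0.05 (SE 0.04) and 0.07 (SE 0.04) per day, with a limma adjusted p of 0.962 for both, and for the MSTN coding probe it was 0.00 (SE 0.08). An unadjusted p of 0.05 or below was reached by 5.06% of all probes for age. With age in the fit, the hypoxia minus normoxia difference was -0.80 (SE 0.42) for the MSTN 3' UTR probe, 0.41 (SE 0.21) and 0.42 (SE 0.22) for the BMP6 probes, and -0.04 (SE 0.44) for the MSTN coding probe. Each of the first 3 was smaller than without age, with a larger error.

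The only fetuses of equal age in both groups were hypoxia replicate 3 and normoxia replicate 3, at 129 days, which also differ in slide and sex. The hypoxic minus the normoxic value of this pair was -0.84 for the MSTN 3' UTR probe, -0.58 for the coding probe, and 0.55 and 0.43 for the BMP6 probes A_70_P026587 and A_70_P026586. With 1 array on each side these have no replicate check. The sex term, which rests on 1 female per group, was between -0.02 and 0.08 for the 4 probes (SE 0.18 to 0.36), beside 3.14% of all probes that reached an unadjusted p of 0.05 or below.

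**Figure D3:**
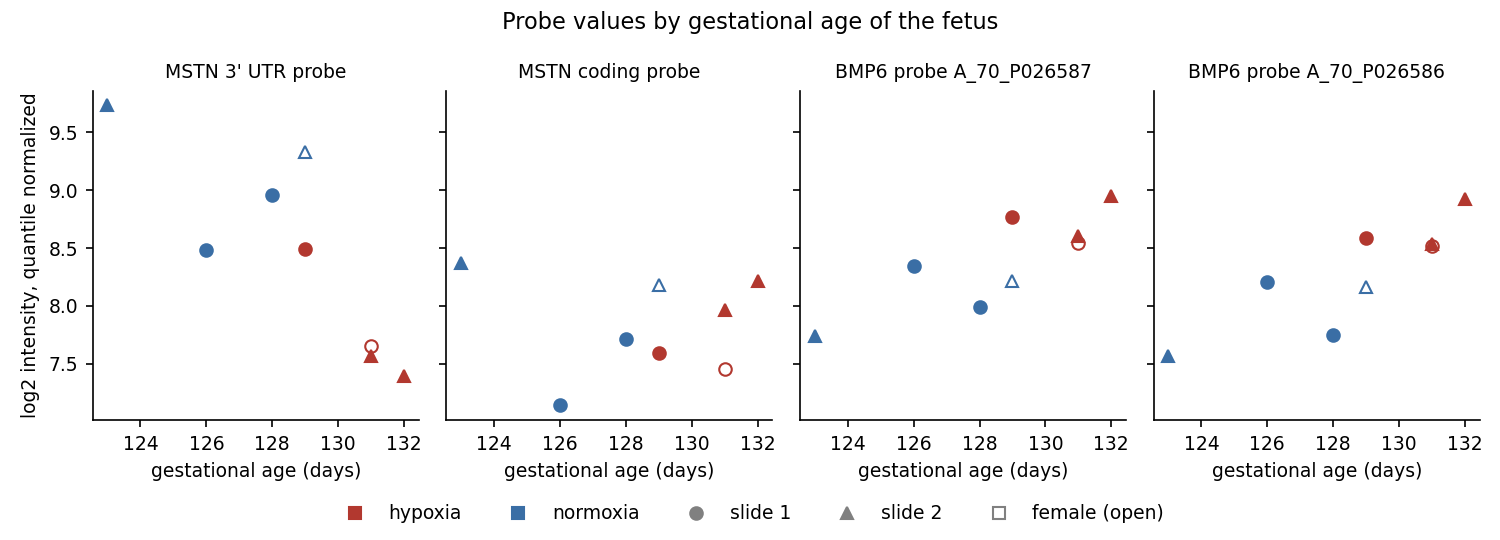
Quantile-normalized log2 intensity (y axis) of the MSTN and BMP6 probes against gestational age in days (x axis), 1 point per fetus, red for hypoxia and blue for normoxia, circles for slide 1 and triangles for slide 2, open for females. The MSTN 3' UTR value ran from 9.73 at 123 days to 7.40 at 132 days, and the hypoxic fetuses were at 129 to 132 days.

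None of the remaining ligands of the family that were retained passed the test in the main fit. Of 31 other ligand genes listed, 10 had a named probe and 9 were retained. By limma at an unadjusted p of 0.05 or below 0 of the 9 were called, beside 18.4% of all retained probes. Their median difference was 0.0069 log2 units, beside -0.0049 for all retained probes. INHBA, which encodes the subunit of activin A, had a difference of -0.33 (SE 0.16, limma adjusted p = 0.297), with 7.82 to 8.43 in hypoxia and 8.12 to 8.71 in normoxia, and its other probe -0.21 (SE 0.18). INHBA was called lower with the replicate block, and without hypoxia replicate 3 or normoxia replicate 4. INHA, the alpha subunit of the inhibins, differed by 0.05 (SE 0.11) and by -0.07 (SE 0.07) on its probes. INHBB was not analysed here.

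The TGFB ligands, which act through TGFBR2 and TGFBR1, lay close to 0. The difference was 0.01 (SE 0.08) for TGFB1, 0.02 (SE 0.12) for TGFB2 and 0.00 (SE 0.09) for TGFB3, whose other probe gave 0.03 (SE 0.07). No other BMP was called in the main fit, though BMP4 was called higher with array brightness as a covariate. BMP4, which patterns the early pituitary, differed by 0.14 (SE 0.19) and 0.18 (SE 0.14) on its probes, and BMP2 by 0.07 (SE 0.08). BMP7, a close relative of BMP6, differed by -0.17 (SE 0.26) and -0.25 (SE 0.26). On its probes a single normoxia array stood high, at 7.61 and 7.54, but not the same array. BMP2 was well above background on 1 of 8 arrays, and both BMP15 probes were too dim to be retained.

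Among receptors, 9 genes were retained, 0 were called higher and 1 lower, beside 7.46% and 11% of all retained probes. ACVR1, the type I receptor that BMP6 uses, was lower by -0.23 on the log2 scale (SE 0.08, adjusted p = 0.194 by limma). Its values were 8.21 to 8.45 in hypoxia and 8.42 to 8.59 in normoxia, with overlap between the groups. Its other probe also differed by -0.23 (SE 0.10), just short of the unadjusted threshold (limma unadjusted p = 0.0538). The call was lost after scaling to a shared 75th percentile, with the authors' deposited values, with the median of the pixels as the signal, with the replicate block, and with age or brightness as a covariate. It was also lost in 5 of the 8 fits without 1 array, those without hypoxia replicate 2, 3 or 4 or normoxia replicate 2 or 4. ACVR2B, the type II receptor of MSTN, differed by -0.08 (SE 0.14), and BMPR1B by 0.02 (SE 0.16).

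Of the proteins that hold these ligands outside the cell, 6 genes were retained and 0 were called, beside 18.4% of all retained probes. FST, follistatin, which binds MSTN and activin, differed by -0.02 (SE 0.41) and -0.03 (SE 0.42) on its probes. FST varied widely in both groups, from 8.43 to 9.98 in hypoxia and from 8.72 to 10.24 in normoxia, so that its difference is poorly determined. NOG, noggin, an inhibitor of BMPs, was 8.11 to 9.43 in hypoxia and 7.26 to 8.63 in normoxia on its brighter probe, a difference of 0.76 (SE 0.35, limma unadjusted p = 0.0543, adjusted p = 0.281). On its dimmer probe the difference was 0.89 (SE 0.37, limma unadjusted p = 0.0375, adjusted p = 0.24). DCN, decorin, a matrix proteoglycan that binds TGF-beta, differed by -0.32 (SE 0.17, limma adjusted p = 0.335). With slide as a block, 2 of the 6 passed the unadjusted limma threshold, NOG higher and DCN lower. NOG was also called higher with the median of the pixels, with the replicate block, and without hypoxia replicate 3 or normoxia replicate 3. DCN was also called lower without normoxia replicate 2.

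All 6 SMAD genes with a probe were retained and 0 were called by limma, beside 18.4% of all retained probes. SMAD1, which carries the BMP signal, differed by -0.11 (SE 0.08), SMAD2 by -0.09 (SE 0.07), and SMAD7, an inhibitory SMAD, by 0.19 (SE 0.14). Of 6 retained target genes, 1 was called, beside the same 18.4%. FSHB rose by 0.46 (SE 0.19, limma adjusted p = 0.241), from 14.52 ± 0.44 in normoxia to 14.99 ± 0.11 in hypoxia (SD, n = 4 each). This call was lost in 6 of the 8 fits, and held without hypoxia replicate 2 or normoxia replicate 3. By quantitative PCR, the study reported a significant increase of FSH mRNA after hypoxia. Of 97 genes in the 5 lists together, without MSTN and BMP6, 37 had a named probe and 36 were retained, 18 above and 18 below 0, with 1 called higher and 1 lower, beside 7.46% higher and 11% lower among all probes. Their median difference was 0.00, and 0 had a limma adjusted p under 0.05. Both calls, of FSHB and ACVR1, were lost with age as a covariate, when 0 of the 36 genes were called. Both were also lost with array brightness as a covariate.

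**Figure D4:**
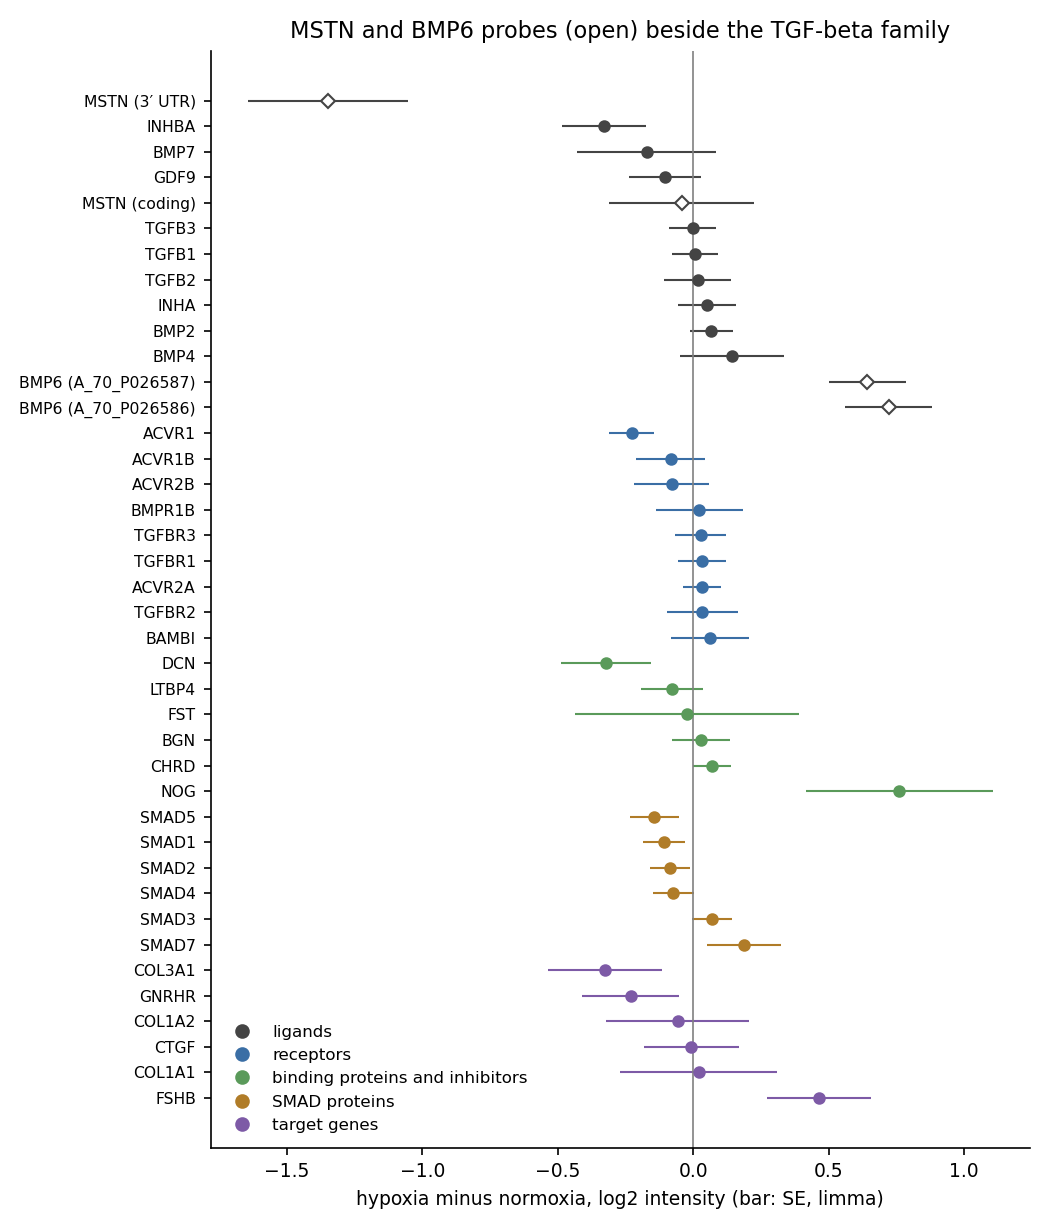
Hypoxia minus normoxia difference in log2 intensity (x axis) with its SE from limma for the retained genes of the TGF-beta family, 1 probe per gene, coloured by role, with all 4 MSTN and BMP6 probes as open diamonds. The MSTN 3' UTR probe (-1.35) and the BMP6 probes (0.64 and 0.72) lie to either side of most other genes, and NOG (0.76) lies beside BMP6.

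MSTN is made mainly by skeletal muscle, and the array holds some genes by which muscle can be traced. Of 39 listed muscle genes, 6 had a named probe and all were retained. By limma at an unadjusted p of 0.05 or below 0 were called, beside 18.4% of all retained probes. With so few genes, nothing is read from this count. Their median difference was 0.07 log2 units. MB, myoglobin, differed by 0.03 (SE 0.17), MYF5, a myogenic transcription factor, by 0.32 (SE 0.30), and TNNC2, troponin C of fast muscle, by 0.09 (SE 0.12). MYOD1 and MYOG, also myogenic transcription factors, differed by 0.21 (SE 0.12) and 0.05 (SE 0.09). NEB, nebulin, a protein of the thin filament, had the largest difference of the 6 and the 1 below 0, at -0.54 (SE 0.29, limma unadjusted p = 0.0889, adjusted p = 0.352), with 6.19 to 6.41 in hypoxia and 6.31 to 7.84 in normoxia. It was well above background on 5 of the 8 arrays, and it was called lower with the processed signal and without normoxia replicate 3. MYOD1 was called without hypoxia replicate 1. The dimmer MYF5 probe was higher by 0.55 (SE 0.17, limma unadjusted p = 0.0118, adjusted p = 0.153). The summed intensity of the 6 genes was 1020 to 1450 in hypoxia and 969 to 1270 in normoxia. CAPN3, a muscle calpain, was counted apart because its change was known from earlier results of these data. As a description, it fell on both of its probes, with differences of -1.32 (SE 0.29) and -0.83 (SE 0.19).

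Markers of other cells moved with the groups in part. These lists were chosen with earlier results of these data known, so their calls are a description and not a test. Of 3 neutrophil granule genes, 2 were called lower, LYZ by -1.01 (SE 0.22, limma adjusted p = 0.0866) and CATHL3 by -1.98 (SE 0.81, limma adjusted p = 0.236), beside 11% of all probes called lower. Their summed intensity was 262 to 1150 in hypoxia and 618 to 2500 in normoxia, and 1 of the 3, LYZ, was well above background on all arrays. The call of LYZ was kept in all 8 fits without 1 array, and that of CATHL3 was lost without hypoxia replicate 2 or 4 or normoxia replicate 1, 2 or 4. OXT, oxytocin, of the posterior lobe list, rose by 0.39 (SE 0.13, limma adjusted p = 0.156), and it was the 1 gene called of 4, beside 7.46% of all probes called higher. Its other probe differed by 0.24 (SE 0.12, limma unadjusted p = 0.0778). The summed intensity of that list was 35100 to 68800 in hypoxia and 39800 to 46600 in normoxia. Both red cell genes, HBB and AHSP, were uncalled. Their summed intensity was 12900 to 32600 in hypoxia and 4380 to 24000 in normoxia. The part of these cells in the MSTN and BMP6 values was not tested.

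The named genes whose values ran most like each probe over the 8 arrays were ranked by Pearson's r among 875 genes, as a description. The arrays share their normalization and the group difference, and the top of 875 correlations over 8 arrays is high by selection. For the MSTN 3' UTR probe the first 5 were PPIA (r of 0.92), DNMT1 (0.92), SLAN (0.91), CLEC6A (0.91) and NEUROD1 (0.90). When deviations from the group means were correlated instead, the first 5 were CYM (0.99), NRG1 (0.95), ACTG1 (0.93), IRF1 (0.93) and RPS6 (0.91). These lists share no gene.

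For the MSTN coding probe the first 4 were NAMPT (0.83), SLC25A17 (0.83), 5HT2A (0.83) and SLC25A11 (0.82). Within the groups the first 5 were NAMPT (0.94), SLC25A17 (0.94), MRPL32 (0.91), NOG (0.90) and UMPS (0.85). For BMP6 probe A_70_P026587 they were CCL25 (0.97), THRB (0.96), CYBA (0.94), ANXA2 (0.94) and CDKN1C (0.93), and within the groups GATA3 (0.99), BEGAIN (0.98), CCL25 (0.96), SPRY-2 (0.96) and C-JUN (0.94). For A_70_P026586 they were CCL25 (0.97), THRB (0.96), ANXA2 (0.93), CYBA (0.93) and SLC9A3R1 (0.91), and within the groups BEGAIN (0.99), GATA3 (0.95), CCL25 (0.95), THRB (0.93) and SPRY-2 (0.92). CCL25, a chemokine, stood in all 4 of the BMP6 lists. No gene stood in the lists of both MSTN probes.

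The differences of the probes under other processing are plotted by setting. Under them the MSTN 3' UTR probe stayed below 0 and both BMP6 probes stayed above 0 in each of the 23 alternatives run for them. These probes were picked for their differences on these same arrays, so the kept direction is no separate support. With a slide block, a replicate block or sex in the fit, the differences could not change, because the groups were balanced for these. The MSTN coding probe was below 0 in 18 of 23 and above 0 in the others. The deposited values of the authors gave -1.57 (SE 0.36) for the 3' UTR probe and -0.04 (SE 0.35) for the coding probe. For BMP6 they gave 0.77 (SE 0.18) and 0.86 (SE 0.20).

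**Figure D5:**
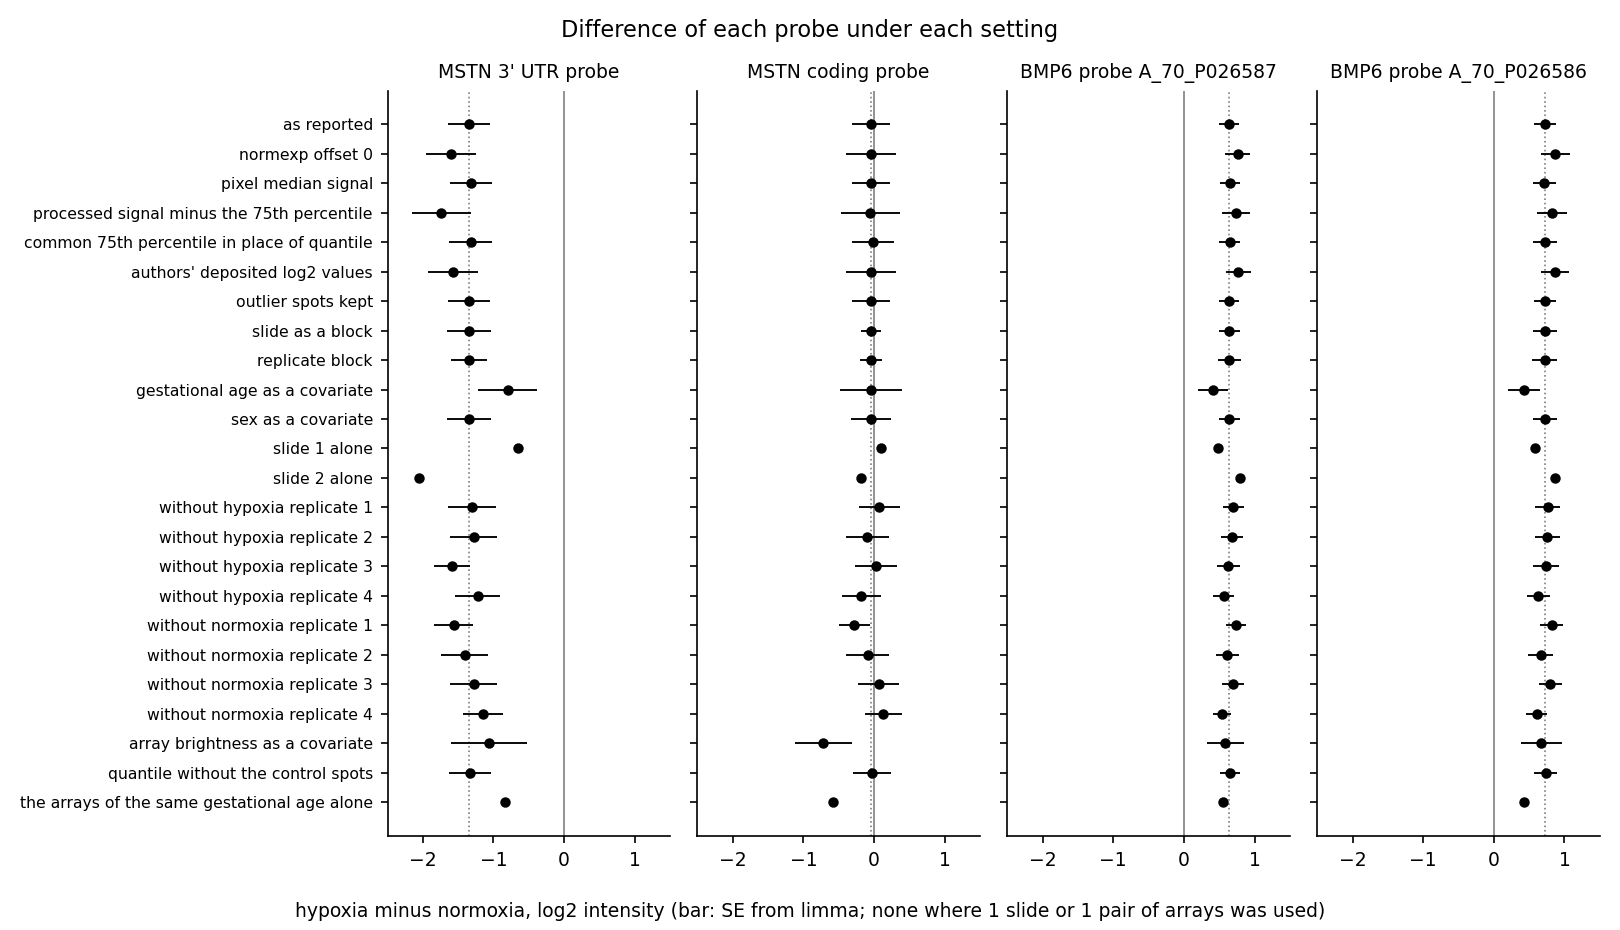
Hypoxia minus normoxia difference in log2 intensity (x axis) of the MSTN and BMP6 probes under each setting (y axis), with bars for the SE from limma where a fit was made, a solid line at 0 and a dotted line at the reported value. The MSTN 3' UTR probe ran from -2.05 on slide 2 alone to -0.65 on slide 1 alone, and the BMP6 probes from 0.41 to 0.87.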

How the data were processed

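Per the labels, the arrays were read with Agilent Feature Extraction 10.1.1.1. The authors deposited the scanner's spot intensity of each array, not normalized, and a table of log2 values of 12956 probes which per the study's methods were background corrected, quantile normalized and filtered for dim probes in limma. The genome build is not given in the sources used here, and no coordinates are printed. One label names the hypothalamus where the others name the pituitary.

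Here the mean spot signal was corrected by normexp (offset 50) in limma 3.58.1 under R 4.3.3, and arrays were quantile normalized over all spots, control spots included. Then 73 spot values marked as outliers were dropped and spots of a probe were averaged. A probe was retained if it reached, on 3 or more arrays, 1.1 times the 95th percentile of negative control spots. Groups came from the labels, and slides from the scanner files. Tests were limma's lmFit and eBayes over all retained probes, with calls at the study's unadjusted threshold of 0.05 and Benjamini-Hochberg adjustment over all retained probes. The steps were tested on simulated data. The arrays are separate fetuses, and their number limits the precision.

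Names came from the array's annotation, or from accessions and gene IDs through the RefSeq table of ARS-UI_Ramb_v3.0. This named 1607 of 15008 probes, for 992 genes. For 18 probes the array's description gave the name. The brightest probe stood for a gene.

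The members and lists were chosen with earlier results of these data known. Named are every MSTN and BMP6 probe, every probe of the inhibins, follistatin, TGFB and other BMPs, called genes of the other lists with up to 3 uncalled ones, and the 5 genes most like each probe. A gene that the naming rule picked is not reported here.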

Additional observations from a re-analysis of the deposited data

Results flagged for a closer look

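An outlying array was looked for in 80 sets of 4 arrays, those of the MSTN and BMP6 probes and of the retained family genes in each condition. It was found in 4 of them, and chance flags about 1 in 20. No set of MSTN or BMP6 was among these. For SMAD7, hypoxia replicate 4 had 7.12 where the remaining hypoxia arrays had 6.63 to 6.67, so that the gap to the nearest array was 0.93 of the whole range. For DCN, hypoxia replicate 1 had 13.66 where the remaining ones had 14.26 to 14.29 (gap over range 0.951). For BAMBI, a decoy receptor of the family, normoxia replicate 3 had 11.25 where the remaining normoxia arrays had 10.97 to 11.00 (0.883). For FSHB, the same array had 15.17 where the remaining ones had 14.22 to 14.36 (0.847).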

How the results depend on the processing

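The direction of the MSTN 3' UTR and BMP6 probes held in all alternatives run for them, which is no separate support for probes picked on these arrays. Leaving out 1 array at a time gave -1.59 to -1.15 for the MSTN 3' UTR probe and -0.28 to 0.13 for the coding probe. It gave 0.53 to 0.73 for A_70_P026587 and 0.60 to 0.82 for A_70_P026586. Values that moved by more than the SD between arrays were those with age as a covariate (MSTN 3' UTR -0.80, BMP6 0.41 and 0.42), the MSTN 3' UTR probe on slide 1 (-0.65) and slide 2 (-2.05), the coding probe with array brightness (-0.72), and, on the pair of equal age, the coding probe (-0.58) and A_70_P026586 (0.43). The brightness covariate, the pair of equal age and a quantile normalization without control spots were chosen after seeing the data.

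Over all probes, 2403 were called. Age as a covariate gave 818 and brightness 551, and without 1 array 1619 to 2856. With a common 75th percentile 979 were higher and 976 lower. Of the family genes 2 were called, 1 with the common 75th percentile or the deposited values, 4 with slide as a block (NOG and DCN in addition), 0 with age and 1 to 3 without 1 array. Of the muscle genes 0 were called, 1 (NEB) with the processed signal and 0 to 1 without 1 array. The cause of these shifts was not tested.

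Same-numbered arrays deviated together with r of -0.05, 0.02, 0.12 and -0.10, so the numbers do not pair them. A replicate block gave 2122 called probes, 3 family genes, 0 muscle genes, and -1.35 (SE 0.25), -0.04 (SE 0.16), 0.64 (SE 0.16) and 0.72 (SE 0.18) for the probes in the order above. With 4 arrays a group, a difference as small as that of the coding probe was not detectable.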
